A study of Mus musculus with 8 samples.

Results

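Hmga1, Hmga2, Lin28a, Lin28b, Igf2bp1, Igf2bp2 and Igf2bp3 are embryonic timing genes, known for high levels in early embryos and falling levels as tissues mature. They were chosen by name, from their known roles and from their measured fall with stage in these same brains, and all 7 were found among the 34866 genes of the deposited count table. All 7 also passed the filter on low counts, which kept 17357 genes for testing. Because their levels across stage had been seen when the genes were chosen, the stage differences of the 7 genes are given as a description with no test.

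RNA-seq had been run on whole embryonic brains of a mouse model of HLHS, hypoplastic left heart syndrome, in which the left ventricle and its valves stay underdeveloped at birth. The 3 mutants were homozygous (m/m) for the mutant alleles of both Sap130, a subunit of the SIN3 histone deacetylase corepressor complex, and Pcdha9, an alpha protocadherin of the neuronal surface. The 5 controls were littermates heterozygous (+/m) for both alleles, so every brain carried at least 1 mutant copy of each gene and no wild-type brain was compared. Mutant 260-1 and controls 260-2 and 260-3 were at E13.5, and mutants 195-3 and 303-2 and controls 195-2, 195-6 and 303-3 were at E14.5. The first number in each name is read here as a litter number, which the labels do not define. Under that reading, E13.5 is 1 litter and E14.5 is 2 other litters, and stage and litter cannot be told apart. Both mutant alleles were present together in all brains, so an effect of Sap130 cannot be told apart from an effect of Pcdha9, or from that of the heart defect.

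These genes form a well-known circuit around the let-7 microRNAs. Lin28a and Lin28b are RNA-binding proteins that block the maturation of let-7, and let-7 in turn represses the mRNAs of Lin28a, Lin28b, Hmga2 and the Igf2bp genes, so that early tissues hold much Lin28 and little mature let-7 and later tissues the reverse. Hmga1 and Hmga2 are small chromatin proteins that bind the minor groove of AT-rich DNA and in the mouse support the self-renewal of fetal neural stem cells, while Igf2bp1, Igf2bp2 and Igf2bp3 bind mRNAs and control their stability, translation and transport.

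The mature let-7 sequences are shown because a single shared seed links them to the 7 genes. The 11 annotated let-7 and miR-98 precursor entries in RefSeq for mouse (GRCm38.p6) gave 9 distinct mature sequences, and all 9 had the same seed (bases 2 to 8, in capitals):
let-7a: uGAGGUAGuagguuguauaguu
let-7b: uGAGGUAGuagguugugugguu
let-7c: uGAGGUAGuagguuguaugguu
let-7d: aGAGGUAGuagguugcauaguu
let-7e: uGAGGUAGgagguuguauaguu
let-7f: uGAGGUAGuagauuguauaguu
let-7g: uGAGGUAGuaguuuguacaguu
let-7i: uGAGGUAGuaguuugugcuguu
miR-98: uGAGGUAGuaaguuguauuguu
Mature microRNAs are not captured by this poly(A) RNA-seq, so let-7 levels were not measured.

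The longest annotated 3′ UTR of each gene (GENCODE M21, GRCm38) was searched on the transcribed strand for the 8-base match CTACCTCA (8mer) and for the 7-base matches CTACCTC (7mer-m8) and TACCTCA (7mer-A1) that are not part of an 8mer. Of the 7 genes, 6, all but Hmga1, held at least 1 8mer, and the 8mers numbered 9 in all. Hmga1 held a single 7mer-m8. Among the 21010 genes with an annotated 3′ UTR, 3.06% held an 8mer and 14.9% held any of these matches, but most of the 7 were already known as let-7 targets when they were chosen. The 9 8mers are printed with the 14 bases before them, 5′ to 3′ on the minus strand, with the 8mer in capitals:
Hmga2 chr10:120364224-120364245: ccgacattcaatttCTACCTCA
Lin28a chr4:134005189-134005210: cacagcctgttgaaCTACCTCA
Lin28a chr4:134004551-134004572: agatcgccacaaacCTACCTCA
Lin28b chr10:45381022-45381043: cccgggcgggaagtCTACCTCA
Igf2bp1 chr11:95961778-95961799: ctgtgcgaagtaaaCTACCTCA
Igf2bp1 chr11:95959357-95959378: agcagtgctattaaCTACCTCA
Igf2bp1 chr11:95958763-95958784: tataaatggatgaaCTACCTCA
Igf2bp2 chr16:22059473-22059494: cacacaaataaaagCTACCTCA
Igf2bp3 chr6:49086787-49086808: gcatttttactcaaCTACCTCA
A match is a stretch of letters and does not show that let-7 acts there in these brains.

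Hmga2 held the most matches, with 1 8mer, 3 7mer-m8 and 3 7mer-A1 matches in 3014 bases. As many were found in 0.123% of the 2437 3′ UTRs between 0.8 and 1.25 times that length. Lin28b had 5 matches in 4445 bases, a number reached by 0.442% of 3′ UTRs of like length. Igf2bp1 had 5 in 6337 bases, 3 of them 8mers, and 0.828% of 3′ UTRs of like length had as many matches of any kind. The other genes held 1 or 2 matches each. In Hmga2 and Lin28b the 8mer lay near the stop codon, starting at bases 58 and 36 of the 3′ UTR.

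**Figure D1:**
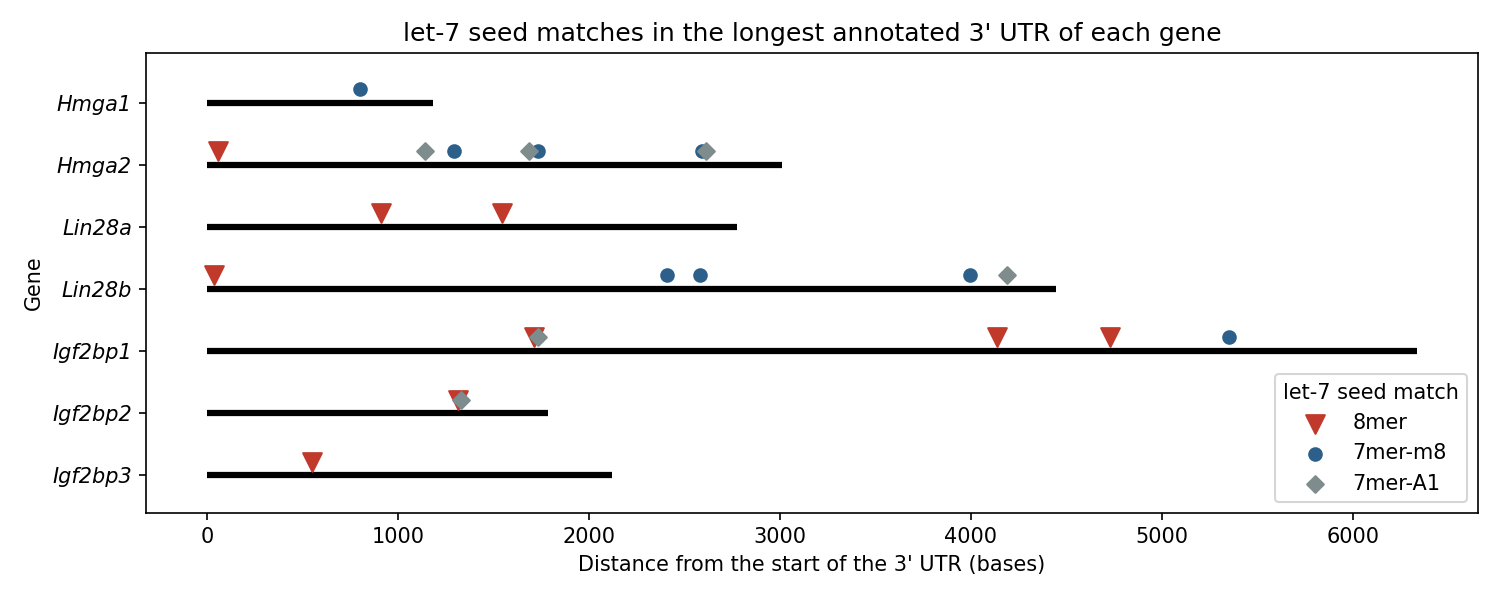
Positions of let-7 seed matches along the longest annotated 3′ UTR of each gene. The x axis is the distance in bases from the start of the 3′ UTR, black lines span the UTR, triangles mark 8mers, circles 7mer-m8 and diamonds 7mer-A1 matches. Hmga2 has 7 matches spread over 3014 bases, while Igf2bp3 and Hmga1 have 1 each.

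The deposited values were expected counts, not normalised, with totals of 36438282 to 47838448 per library, and levels are given as CPM, counts scaled to the library size after adjustment with edgeR's TMM factors. Sap130 checked the labels and was at 35.9, 34.6 and 32.6 CPM in mutants 260-1, 195-3 and 303-2, below every control, which lay at 46.8 to 52.1 CPM. Some libraries stood apart in ways the labels do not describe. Summed over 14 Hox genes, markers of hindbrain and spinal cord, mutant 260-1 had 0.407 CPM and control 195-6 had 2.80 CPM, against 437 and 317 CPM in the other mutants and 198 to 281 CPM in the other controls. Mutant 195-3 had 336 CPM summed over 14 telencephalon genes, and the other mutants 1664 and 832 CPM, against 1423 to 1707 CPM in controls. The libraries thus differed in region markers, and in bulk RNA fewer cells of a type and less RNA per cell cannot be told apart.

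Between genes, levels were compared per length as CPM per kilobase of exon, with means ± SD over all 8 libraries. Hmga1 stood highest at 63.5 ± 9.71 CPM per kb. The Igf2bp genes followed, with Igf2bp2 at 6.56 ± 1.58, Igf2bp3 at 5.95 ± 1.51 and Igf2bp1 at 4.204 ± 1.44 CPM per kb. Lin28b was at 2.42 ± 0.353, Hmga2 at 2.10 ± 1.29 and Lin28a at 0.164 ± 0.0513 CPM per kb. Of the neighbours in that order, Hmga1 was above Igf2bp2, Igf2bp3 above Igf2bp1, and Hmga2 above Lin28a in 8 of 8 libraries. Igf2bp2 exceeded Igf2bp3, and Igf2bp1 exceeded Lin28b, in 7 of 8. Lin28b exceeded Hmga2 in 5 of 8, and the means of these 2 genes, like those of Igf2bp2 and Igf2bp3, differed by less than 1 SD. Hmga1 (chr17:27556497-27563674, plus strand) shares 55.0% of its distinct exonic 50-base stretches with the near-identical copy Hmga1b, so its counts depend on how the authors assigned shared reads, although Hmga1b itself was at most 0.56 CPM in any library.

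Hmga2 was the 1 gene of the 7 that passed the test for genotype. It lies on the minus strand (ENSMUSG00000056758.14, chr10:120361275-120476469). In mutants 260-1, 195-3 and 303-2 it stood at 33.5, 10.2 and 15.2 CPM, against 17.4 and 14.6 CPM in the E13.5 controls 260-2 and 260-3 and 6.44, 8.20 and 8.05 CPM in the E14.5 controls 195-2, 195-6 and 303-3. The mutant was above every control with its own number in 3 of 3 litters, although mutant and control values overlapped when the stages were pooled. For number 303 this compares with the single control 303-3, here and below. How many of all genes share such an order was not counted. The mutant minus its controls was 1.07 on the log2 scale for number 260, 0.48 for 195 and 0.91 for 303. Means were 19.6 ± 12.3 CPM in mutants (SD, n = 3) and 11.0 ± 4.80 CPM in controls (SD, n = 5). With stage in the model Hmga2 was higher in mutants by 0.86 ± 0.15 (log2, SE), with an edgeR quasi-likelihood adjusted p of 0.00652 over the 17357 genes. The call was lost without stage in the model (0.84, adjusted p = 0.226 by the same edgeR test) and in the E14.5 brains alone (0.75, adjusted p = 0.0576). Without the Hox-poor mutant 260-1 and control 195-6 it held (0.81, edgeR adjusted p = 0.0432).

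Over all genes, 10.9% were higher and 9.74% lower in mutants by this test, so 1 of 7 higher and 0 of 7 lower is a share near the background. With upper quartile scaling the split over all genes was 1240 higher and 2090 lower, beside 1885 higher and 1691 lower here. DESeq2 called 2 of the 7 higher, Hmga2 and Igf2bp3, and 0 lower, beside 2301 higher and 2051 lower of the 17357 genes. At an unadjusted p under 0.05 edgeR had 3 of the 7, Hmga2, Lin28a and Igf2bp3, all higher in mutants. Of all 17357 genes, 6374 had such a p, in either direction, so this share too is near the background. All 7 fitted differences were positive, with a median of 0.26 on the log2 scale, beside -0.00052 for all genes, of which 49.9% were positive. Several of the 7 vary together across these libraries and all were chosen with the results known, so this count carries no test.

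**Figure D2:**
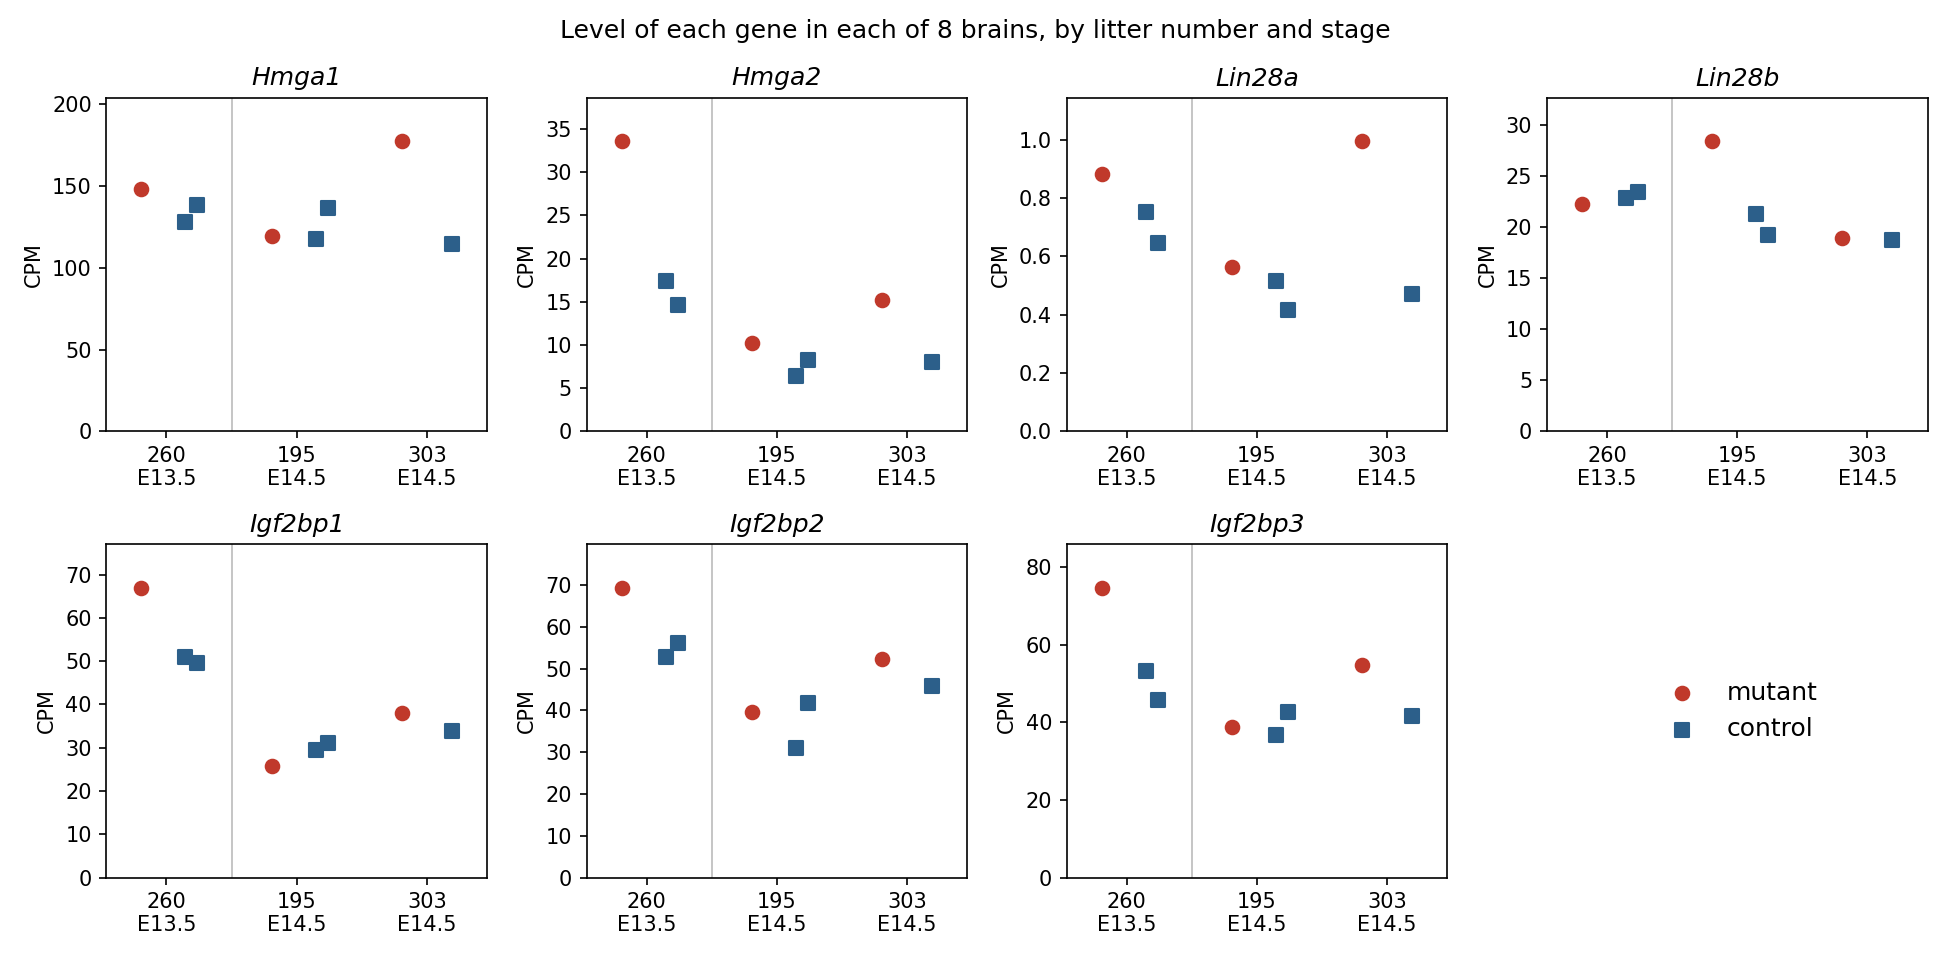
Level in CPM of each gene in each of the 8 brains, with a separate linear axis per gene starting at 0. Circles are mutants and squares controls, grouped by litter number, with E13.5 left and E14.5 right of the grey line. Hmga2 in the mutant lies above the controls of its own number in all 3 groups, at 33.5, 10.2 and 15.2 CPM.

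Hmga1 (ENSMUSG00000046711.15), the more abundant relative of Hmga2, stood at 148, 119 and 177 CPM in mutants 260-1, 195-3 and 303-2, against 128, 138, 118, 137 and 115 CPM in controls 260-2, 260-3, 195-2, 195-6 and 303-3. The ranges overlapped, and mutant 195-3 lay among the controls. The fitted difference was 0.23 ± 0.12 (log2, SE) and did not pass the test (edgeR adjusted p = 0.197).

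Lin28a (ENSMUSG00000050966.9, chr4:134003330-134018841, minus strand), the form typical of pluripotent cells and the early embryo, was near the limit of detection, with 19 to 39 counts per library. It stood at 0.881, 0.564 and 0.993 CPM in mutants 260-1, 195-3 and 303-2. In controls 260-2, 260-3, 195-2, 195-6 and 303-3 it stood at 0.752, 0.645, 0.516, 0.416 and 0.471 CPM. Each mutant was above all controls of its number, while the groups overlapped across stages. The fitted difference of 0.57 ± 0.25 (log2, SE) had an edgeR adjusted p of 0.122, and its SE was the widest of the 7.

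Lin28b (ENSMUSG00000063804.8, chr10:45376620-45486395, minus strand), the paralogue retained longer in fetal tissues, stood at 22.3, 28.4 and 18.96 CPM in mutants 260-1, 195-3 and 303-2. The controls 260-2, 260-3, 195-2, 195-6 and 303-3 had 22.9, 23.5, 21.3, 19.2 and 18.8 CPM. Mutant 195-3 was the highest of all libraries, and the other mutants lay within the control range. The fitted difference was 0.15 ± 0.13 (log2, SE; edgeR adjusted p = 0.442), and without mutant 195-3 it turned to -0.08.

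Igf2bp1 (ENSMUSG00000013415.9, chr11:95957163-96005940, minus strand), known as ZBP1 for carrying beta-actin mRNA to growing processes, stood at 67.0, 25.8 and 38.0 CPM in mutants 260-1, 195-3 and 303-2. The controls 260-2, 260-3, 195-2, 195-6 and 303-3 had 51.0, 49.5, 29.6, 31.0 and 33.8 CPM. Mutants held both the highest and the lowest value of the 8 brains, so the groups overlapped fully. The fitted difference was 0.16 ± 0.13 (log2, SE; edgeR adjusted p = 0.388).

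Igf2bp2 (ENSMUSG00000033581.16, chr16:22059009-22163299, minus strand), which in mouse neocortex supports the neurogenic potential of early progenitors as an Hmga target, stood at 69.3, 39.5 and 52.2 CPM in mutants 260-1, 195-3 and 303-2. The controls 260-2, 260-3, 195-2, 195-6 and 303-3 had 52.9, 56.1, 31.1, 41.7 and 45.8 CPM. The highest value was that of mutant 260-1 and the other mutants lay within the control range. The fitted difference was 0.26 ± 0.13 (log2, SE; edgeR adjusted p = 0.181).

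Igf2bp3 (ENSMUSG00000029814.10, chr6:49085223-49214957, minus strand), the oncofetal form of the family, stood at 74.7, 38.8 and 54.7 CPM in mutants 260-1, 195-3 and 303-2. The controls 260-2, 260-3, 195-2, 195-6 and 303-3 had 53.2, 45.9, 36.8, 42.7 and 41.7 CPM. Mutants 260-1 and 303-2 lay above every control, and mutant 195-3 was second lowest of the 8. The fitted difference was 0.35 ± 0.13 (log2, SE; edgeR adjusted p = 0.0750). Igf2bp3 overlaps Malsu1, on the opposite strand, over 1529 exonic bases, and the library kit does not keep the strand, so reads there cannot be told apart. Malsu1, a mitochondrial ribosome assembly factor, was at 29.8, 26.1 and 25.5 CPM in mutants 260-1, 195-3 and 303-2, against 18.1 to 24.2 CPM in controls, and its part in the Igf2bp3 values was not tested.

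Across stage, the values that bear on how the genes were chosen were as follows. All 7 fitted E14.5 minus E13.5 differences were negative, with a median of -0.43 on the log2 scale beside 0.0012 for all genes, of which 49.8% were negative. Over all genes 2.24% were called higher and 1.01% lower at E14.5, which is given for scale only. The fitted log2 difference was -1.20 for Hmga2 and -0.82 for Igf2bp1. It was -0.51 for Igf2bp2, -0.43 for Igf2bp3 and -0.43 for Lin28a. Lin28b and Hmga1 moved least, at -0.12 and -0.07. In controls, Hmga2 averaged 7.57 CPM at E14.5 and 16.04 CPM at E13.5, and Igf2bp1 31.5 CPM at E14.5 and 50.2 CPM at E13.5. The E14.5 controls lay below both E13.5 controls for every gene except Hmga1. Among mutants, both E14.5 brains lay below the single E13.5 mutant for Hmga2, Igf2bp1, Igf2bp2 and Igf2bp3, but not for Hmga1, Lin28a or Lin28b. The share of all genes with such an order between stages, in controls or in mutants, was not counted. With so few brains per stage, and genes chosen for their fall, these orders are description only.

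**Figure D3:**
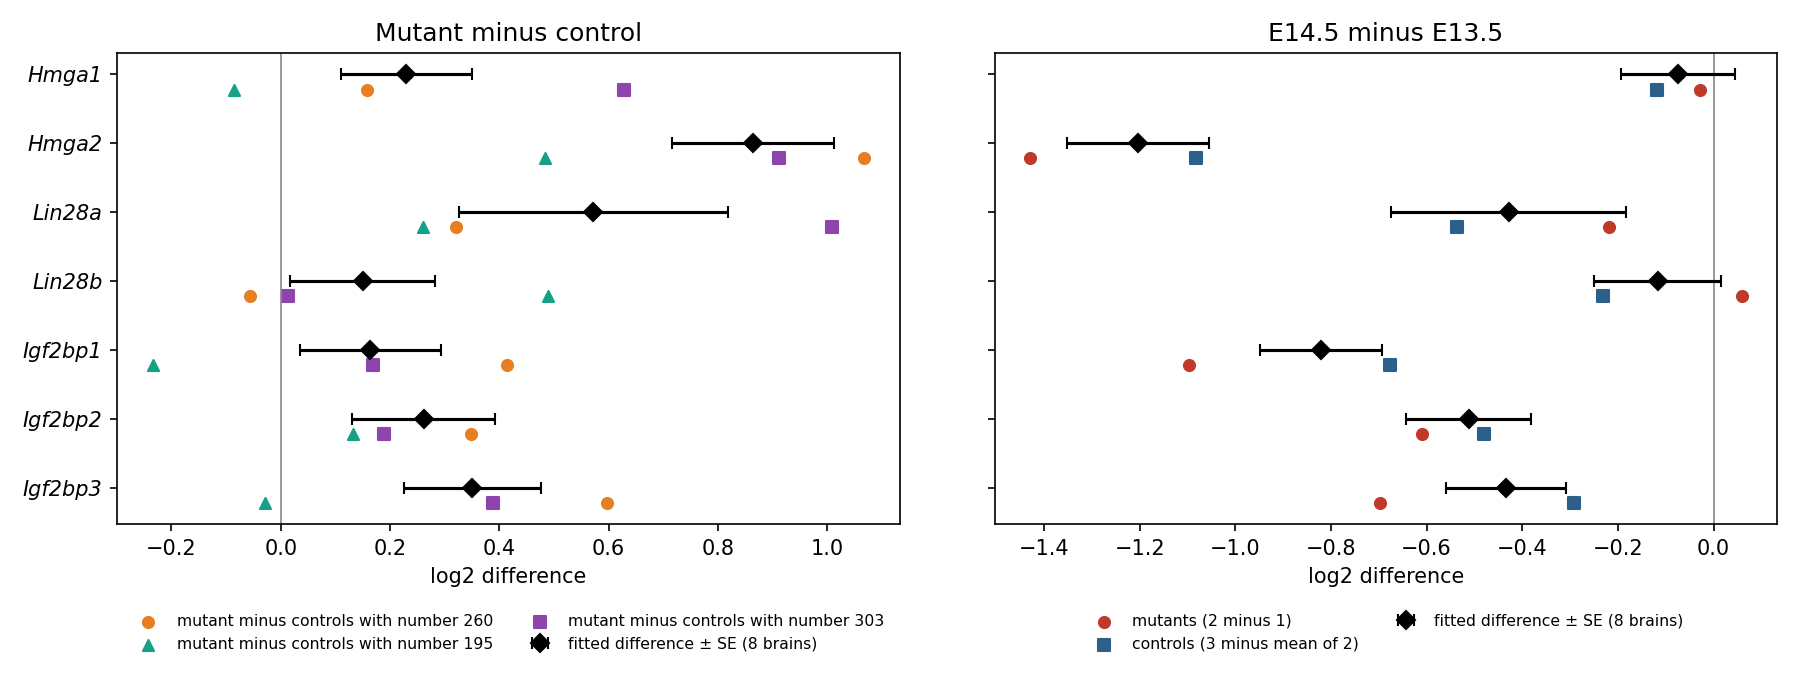
Fitted log2 differences for mutant minus control (left) and E14.5 minus E13.5 (right), with diamonds and bars showing the fitted value ± SE over 8 brains. Coloured symbols on the left are each mutant minus the controls of its number, and on the right the stage difference within mutants and within controls. Hmga2 lies farthest from 0 on both sides, at 0.86 and -1.20, and the right panel carries no test because the genes were chosen for their stage pattern.

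Whether the mutant difference depended on stage was tested with an interaction term, with 1 mutant at E13.5. None of the 7 passed at an adjusted p under 0.05 by edgeR, where 0.104% of all genes did. DESeq2 also called 0 of the 7, beside 242 of 17357 genes. At an unadjusted edgeR p under 0.05 there were 0 of the 7, beside 1622 of 17357 genes, so 0 of 7 is near the background. The lowest unadjusted p was 0.134, for Igf2bp1, and edgeR adjusted p-values ran between 0.652 and 0.924. With a single mutant at E13.5 this does not show that the differences were alike at both stages.

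Levels of progenitor, cycling and region markers also differed between these libraries. The summed level of 9 neural progenitor markers (Sox2, Sox3, Nes, Vim, Hes1, Hes5, Notch1, Prom1 and Msi1) was 1934, 1169 and 1517 CPM in mutants 260-1, 195-3 and 303-2, against 1470, 1548, 1071, 1225 and 1085 CPM in controls 260-2, 260-3, 195-2, 195-6 and 303-3. By edgeR 4 of the 9 rose in mutants (Vim, Hes1, Hes5 and Prom1) and 0 fell. The 8 cycling cell markers summed to 1389, 372 and 817 CPM in mutants 260-1, 195-3 and 303-2 and to 650 to 994 CPM in controls, with 0 of 8 called in either direction by edgeR or DESeq2 and 0 at an unadjusted p under 0.05. Without mutant 195-3, 7 progenitor and 6 cycling markers were called higher in mutants, and without mutant 260-1 and control 195-6, 2 progenitor and 0 cycling markers. Over all genes those settings had 2517 of 17641 and 984 of 17454 called higher. All 7 midbrain and thalamus genes rose in mutants, and their sum was 391 to 449 CPM in mutants and 213 to 279 CPM in controls without overlap. Over all genes 10.9% were called higher. These lists were chosen with earlier results of these data known, so the 7 of 7 is no independent test. The 9 mesenchyme and meninges markers summed to 553 to 947 CPM in mutants and 484 to 735 CPM in controls, with 1 of 9 called, Lum, which was higher. None of these markers was at 0 in any library, and the part of any of them in the Hmga2 difference was not tested.

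Ratios of Hmga2 to these sums, chosen after the values were seen, differed with the sum used. Per 1000 CPM of progenitor markers it was 17.4, 8.71 and 10.01 CPM in mutants 260-1, 195-3 and 303-2, against 11.9, 9.46, 6.02, 6.70 and 7.42 CPM in controls 260-2, 260-3, 195-2, 195-6 and 303-3. Per 1000 CPM of cycling cell markers it was 24.2, 27.4 and 18.6 CPM in those mutants and 9.91 to 17.6 CPM in controls. Both ratios lay above those of every control of the same number in 3 of 3 litters. Per 1000 CPM of mesenchyme and meninges markers this held in 2 of 3. Per 1000 CPM of midbrain and thalamus genes it held in 1 of 3, with 85.9, 22.7 and 34.7 CPM in mutants 260-1, 195-3 and 303-2, against 62.5, 55.2, 30.3, 33.3 and 35.5 CPM in controls 260-2, 260-3, 195-2, 195-6 and 303-3. Igf2bp1 and Igf2bp2 per 1000 CPM of progenitor markers exceeded the controls of their number in 0 of 3 litters, and Igf2bp3 in 1 of 3. Per 1000 CPM of cycling cell markers Igf2bp3 did so in 3 of 3, and Igf2bp1 and Igf2bp2 in 1 of 3.

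**Figure D4:**
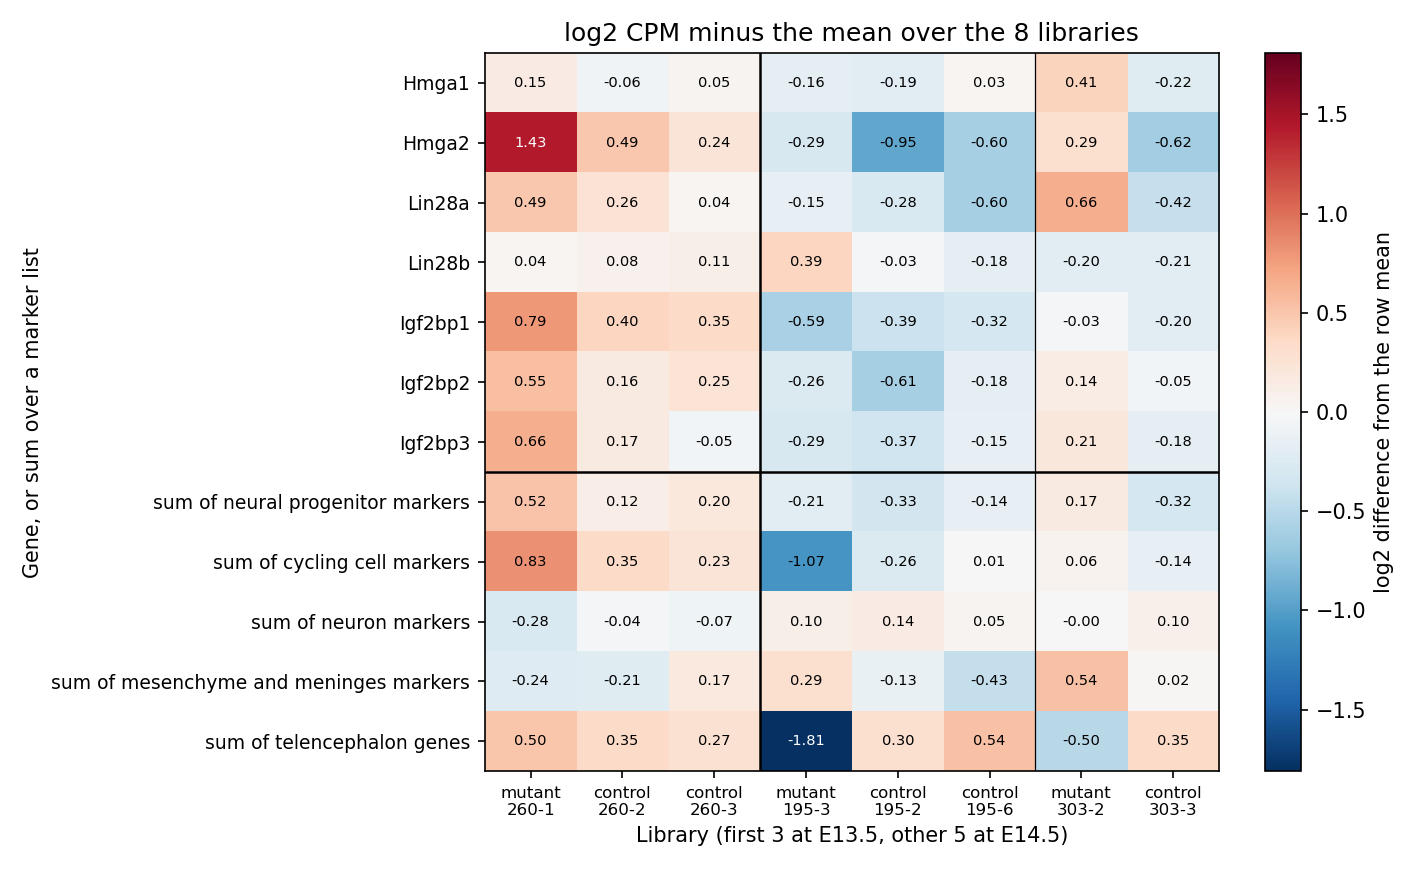
Colour and printed value give log2 CPM minus the row mean over the 8 libraries, for the 7 genes (upper rows) and for sums over marker lists (lower rows), with libraries in columns by litter number. Hmga2 and the Igf2bp genes share their high value in mutant 260-1 with the progenitor and cycling sums, and mutant 195-3 is low in cycling and telencephalon sums.

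The 7 genes did not share a single profile. As a description over 8 libraries that share preparation and stage, Pearson correlations of log2 CPM were taken. Among Hmga2, Igf2bp1, Igf2bp2 and Igf2bp3 they were 0.87 to 0.95, and 0.75 to 0.88 without mutant 260-1. That library held the highest value of 4 of the 7 genes, and of 24.0% of all 17357 genes. Lin28b correlated with the other 6 at -0.31 to 0.19. The genes most like each by this measure, among 13714, were Bbs12 (0.99) and Fgfr1op2 (0.99) for Hmga2, Sox9 (0.99) and Cd164 (0.99) for Igf2bp1, Dvl2 (0.99) and Tjap1 (0.97) for Igf2bp2, and Rnf4 (1.00) and Sinhcaf (0.99) for Igf2bp3. They were Gpn1 (1.00) and Tmem242 (0.99) for Hmga1, Mthfs (0.96) and Adsl (0.96) for Lin28a, and Efcab12 (0.98) and Tlnrd1 (0.96) for Lin28b. The mean of the 7 standardised profiles, Lin28b included, was most like Hes1 (1.00), Ccnd1 (0.99), Prom1 (0.99), Garem2 (0.99) and Ddr1 (0.99). Hes1 and Prom1 are among the progenitor markers above, and the other 3 are not. All these values are the highest of 13714 correlations over only 8 libraries, and they carry no test. Each of the 7 genes alone also had its closest genes at 0.96 to 1.00.

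Of 26 other let-7 targets, 7 rose and 1 fell in mutants by edgeR, with a median difference of 0.05 on the log2 scale. Without mutant 260-1 and control 195-6, 0 were called higher and 2 lower. Cdc34, a ubiquitin-conjugating enzyme of the cell cycle, rose most among those named, with 69.3 ± 17.9 CPM in mutants (SD, n = 3) and 39.2 ± 5.64 CPM in controls (SD, n = 5), a log2 difference of 0.84. The cell cycle regulators E2f5 and Ccnd1 (cyclin D1) rose by 0.44 and 0.59. Thbs1, an extracellular matrix glycoprotein, fell to 14.3 to 14.7 CPM in the 3 mutants, against 15.99 to 23.3 CPM in the 5 controls, and was the 1 target that fell. Adjusted p-values of these 4 genes were 0.0130 to 0.0192 in edgeR, and of 17 alternative settings the call was lost in 2 for Cdc34, 5 for E2f5, 6 for Ccnd1 and 5 for Thbs1. At E14.5, Ccnd1 and the zinc finger gene Plagl2 fell, by 0.63 and 0.45 on the log2 scale, the only 2 of the 26 called for stage. More widely, of the 575 tested genes outside the 7 with an 8mer, 49 (8.52%) were higher in mutants and 69 lower, while of 15556 genes without one 1781 (11.4%) were higher and 1564 (10.1%) lower, and the median 3′ UTR was 2472 bases with an 8mer and 1149 bases without.

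Of 20 genes of microRNA processing and silencing, 1 rose and 3 fell in mutants. Prkra (PACT), a Dicer partner, rose by 0.25 on the log2 scale, while the silencing scaffolds Tnrc6c and Tnrc6b fell by 0.34 and 0.30. Trim25, an RNA-binding ubiquitin ligase reported to take part in Lin28a-mediated let-7 uridylation, fell to 6.04 ± 0.461 CPM in mutants (SD, n = 3), against 8.27 ± 0.947 CPM in controls (SD, n = 5). The uridylases Tut4 and Tut7, which act on pre-let-7 with Lin28, had differences of 0.02 and 0.00 that did not pass the test. The edgeR adjusted p-values of the 4 called genes were 0.0159 to 0.0306. Of 17 alternative settings the call was lost in 10 for Trim25, 5 each for Tnrc6c and Tnrc6b and 4 for Prkra. With an offset for length and GC content the differences of Tnrc6c, Trim25 and Prkra were -0.053, -0.25 and 0.17, with edgeR adjusted p-values of 0.567, 0.213 and 0.0772.

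Few genes that act with the Igf2bp proteins passed the test. Of 13 protein partners of Igf2bp ribonucleoprotein granules, 0 were called by genotype with edgeR (3 at an unadjusted p under 0.05, and 1, higher, with DESeq2). Of the 8 measured mRNAs known to be bound, Igf2 and Actb among them, 0 were called by edgeR or DESeq2 (2 at an unadjusted p under 0.05). At E14.5 the RNA transport protein Stau2 rose by 0.34 and Fxr1, a relative of the fragile X protein, fell by 0.24 (log2). In the insulin-like growth factor axis 1 of 11 genes rose in mutants. This was Igfbp2, a secreted protein that binds the growth factors, at 248, 241 and 343 CPM in mutants 260-1, 195-3 and 303-2, against 150 to 194 CPM in controls, without overlap. Its log2 difference was 0.72 ± 0.13 (SE, edgeR adjusted p = 0.00877), and it alone of the genes named from these lists was called under all 17 alternative settings. Igfbp3 rose at E14.5 by 0.67.

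Among 9 other high mobility group genes, which share DNA-binding or nucleosome-binding motifs but are separate families, 2 rose in mutants. Without mutant 195-3 the number higher was 7, in a setting where 2517 of 17641 genes were higher. Hmgb3, expressed in stem and progenitor cells, stood at 436 ± 43.4 CPM in mutants (SD, n = 3) and 346 ± 35.1 CPM in controls (SD, n = 5), a rise of 0.35 (log2). Hmg20b, a component of the CoREST histone demethylase complex, rose by 0.63. Of 4 genes linked to Hmga2 in the self-renewal of mouse neural stem cells, Cdkn2a did not pass the filter. Of the other 3, Junb rose by 0.45, and Cdkn2b and Bmi1 had differences of 0.55 and 0.11 that did not pass the test. The Junb call was lost in 12 of 17 alternative settings (edgeR or DESeq2 adjusted p up to 0.136), that of Hmg20b in 8 and that of Hmgb3 in 3.

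Late progenitor and gliogenic genes included 4 called lower and 1 called higher in mutants out of 13, with a median of -0.22 on the log2 scale. Nfix, a transcription factor of progenitor maturation, fell to 160, 85.3 and 185 CPM in mutants 260-1, 195-3 and 303-2, against 271 to 377 CPM in controls, a difference of -1.22 ± 0.26 (log2, SE; edgeR adjusted p = 0.0226). Zbtb20, a repressor involved in hippocampal and astrocyte development, fell to 66.6 ± 10.3 CPM in mutants (SD, n = 3), against 119 ± 23.9 CPM in controls (SD, n = 5). Fabp7, a radial glia fatty acid binding protein, rose by 0.35. Gfap, the astrocyte filament gene, was barely expressed, averaging 0.155 ± 0.102 CPM over mutants and 0.536 ± 0.324 CPM over controls, and was called lower. At E14.5 Gfap was called higher and Sox9, a progenitor and glial factor, lower (-0.36). Several of these genes mark the telencephalon, whose gene sum was low in mutants 195-3 and 303-2, and the part of that in the list was not tested. Calls for Nfix, Zbtb20 and Fabp7 were each lost in 5 of 17 alternative settings and that for Gfap in 2, and with the length and GC offset Fabp7 differed by 0.21 (edgeR adjusted p = 0.142).

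By edgeR the calls for stage were few and rested on single libraries. Over all genes 389 were higher and 176 lower at E14.5, and none was called without control 260-3, 195-2 or 303-3 (edgeR, with 4100, 3248 and 3475 genes at an unadjusted p under 0.05). The edgeR stage calls of Plagl2, Ccnd1, Stau2, Fxr1, Igfbp3, Gfap and Sox9 hold only with those libraries in. DESeq2 called 1423 genes higher and 941 lower at E14.5, and it was not run with libraries left out.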

How the data were processed

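RNA-seq of whole embryonic brains from 3 mutant and 5 control mice was analysed from 1 deposited table. Its values are expected counts per gene, not normalised, with a share of whole numbers of 66.0% to 68.9% per library. Per the labels' protocols, RNA was column-purified with DNase digestion and made into libraries by a TruSeq v2 kit, which selects poly(A) RNA and does not mark the strand. Per the submitters' processing notes edgeR 3.4.2, HTSeq 0.5.4p5 and TopHat2 2.0.9 were used, with builds mm10 and GRCm38 and no roles stated. HTSeq writes whole numbers, so how the authors made the deposited expected counts is not stated in the sources used here. Reads shared by similar genes may be split between them in such counts.

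Gene identifiers were matched to GENCODE M21, which gave 34582 symbols and left 284 identifiers without one. The expected counts were rounded and fitted with edgeR 4.0.16 (R 4.3.3). Low genes were removed with filterByExpr at a minimum count of 10, libraries were scaled by TMM, and genotype was tested with the robust quasi-likelihood F test with stage in the model and Benjamini-Hochberg adjustment over 17357 genes at 0.05. The same fit gave stage, and an added term the interaction. The common biological coefficient of variation was 14.27%. CPM used TMM-adjusted library sizes, and log2 CPM a prior count of 2. The test was run first on simulated counts with known changes. Nothing in the labels says that the brains came from separate dams, and p-values measure the spread between these brains.

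Alternatives were RLE and upper quartile factors, no filter, DESeq2 1.42.0, the litter number as a block, no stage term, a length and GC offset, the E14.5 brains alone, and leaving out libraries. The 7 genes and the gene lists were chosen with earlier results of these data known. Named list genes are up to 3 per direction of smallest p among those called for genotype and up to 2 for stage, and genes outside that rule are named from the fixed lists or said to have been picked with values in view. A gene that this rule takes is not reported here. The genes most like each of the 7 were the 2 of highest Pearson correlation over the 8 libraries.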

Additional observations from a re-analysis of the deposited data

How the results depend on the processing

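Hmga2 was called higher in mutants under 15 of 17 alternatives, with log2 differences of 0.74 to 1.01, and the exceptions were no stage term (adjusted p = 0.226) and the E14.5 brains alone (adjusted p = 0.0576), by edgeR. The number of the 7 genes called higher, 1, was 2 with DESeq2, which added Igf2bp3 (adjusted p = 0.0457), 0 without the stage term and 0 in the E14.5 brains alone. It was 1 to 4 when a single library was left out. It was 4 without mutant 195-3, when Hmga1, Igf2bp1 and Igf2bp3 were added with edgeR adjusted p-values of 0.0264, 0.0151 and 0.00355. In that setting the calls over all 17641 genes also rose, to 2517 higher and 2467 lower. The number of the 7 genes called lower was 0 throughout. With a single library left out the Lin28b difference ran from -0.082, without mutant 195-3, to 0.27, without mutant 260-1, and the cause was not tested. The stage differences of the 7 genes were negative in 14 of 14 alternatives.

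With the litter number as a replicate block, 1382 genes were higher and 1316 lower in mutants, and Hmga2 was higher by 0.82 (edgeR adjusted p = 0.0114), the 1 gene of the 7 called. Deviations of mutants and controls with the same number correlated at 0.202 for 260, 0.032 for 195 and 0.150 for 303, and mutant 195-3 correlated best, at 0.233, with the control of number 303. The main model therefore did not pair the brains by number, and comparisons within a number are given as description only. These correlations cover all tested genes, region markers included, and do not show whether a number is a litter.

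Over all genes, higher calls in mutants (1885) were 1240 with upper quartile factors, 890 without the stage term, 766 in the E14.5 brains, 984 without mutant 260-1 and control 195-6, and 632 to 2517 with a single library left out. Lower calls (1691) were 588 without the stage term, 752 in the E14.5 brains, 986 without those 2 libraries and 685 to 2467 with a single library left out. Pathway list genes called higher (13) were 8 with upper quartile factors, 4 without the stage term, 4 in the E14.5 brains, 4 without those 2 libraries and 3 to 18 with a single library left out. Pathway list genes called lower (9) were 14 with DESeq2, 3 without the stage term, 5 in the E14.5 brains and 1 to 12 with a single library left out. Calls higher at E14.5 (389) were 193 with upper quartile factors, 648 without the filter, 1423 with DESeq2, 21 without those 2 libraries and 0 to 936 with a single library left out. Calls lower at E14.5 (176) were 313 without the filter, 941 with DESeq2, 265 with the length and GC offset, 7 without those 2 libraries and 0 to 579 with a single library left out. Interaction calls (18) were 156 without the filter and 242 with DESeq2.

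Precision is limited by the number of brains, with 3 mutants and 1 of them at E13.5, and for Lin28a also by 19 to 39 counts per library.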

Other observations

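Of the globin genes, chosen after their values were seen, the embryonic Hbb-y and Hbb-bh1 were called higher in mutants. Hbb-y, a beta-type globin of primitive red cells, stood at 123, 25.8 and 27.8 CPM in mutants 260-1, 195-3 and 303-2, against 93.6 and 91.5 CPM in the E13.5 controls 260-2 and 260-3 and 4.40, 7.26 and 6.99 CPM in the E14.5 controls 195-2, 195-6 and 303-3. Each mutant was above all controls of its number. The mutant minus control difference was 1.52 ± 0.37 (log2, SE, edgeR adjusted p = 0.0347). That of E14.5 minus E13.5 was -3.33 ± 0.37 (edgeR adjusted p = 0.0322). This stage call, too, was lost without control 260-3, 195-2 or 303-3, where edgeR called no gene for stage. Hbb-bh1, also embryonic, was higher in mutants by 1.98 (edgeR adjusted p = 0.0190) at levels of at most 0.908 CPM. The embryonic Hba-x differed by 0.82 without passing the test (edgeR adjusted p = 0.174), and the adult globins Hbb-bs, Hba-a1 and Hba-a2 differed by 0.25, 0.09 and 0.03 without passing it. Of 10 erythroid markers, these globins included, 2 were called higher and 1 lower, where 10.9% and 9.74% of all genes were. The lower one was Klf1, with a difference of -1.23 (log2, edgeR adjusted p = 0.0175) at levels of at most 0.60 CPM. Without mutant 260-1 and control 195-6, 3 of the 10 were called higher and 0 lower, so the Klf1 call was lost. Over all genes that setting had 984 higher and 986 lower of 17454.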
